A study of Homo sapiens with 26 samples.

Results

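The genes described are those of the human proteasome. A gene was a member if its symbol in the deposited count tables consisted of PSM, a letter from A to G and a number, and the 3 immunoproteasome subunits PSMB8, PSMB9 and PSMB10 were left out. The rule found 45 of the 26485 genes. By role they were 7 alpha and 7 beta subunits of the 20S core, 2 tissue-restricted core subunits (PSMA8 of testis and PSMB11 of thymus), 6 ATPases and 11 further subunits of the 19S cap, 3 chaperones of 19S assembly, 4 activators, 1 inhibitor and 4 chaperones of 20S assembly. All but PSMA8 and PSMB11 passed the filter on low counts, so that 43 members were tested in both sets of libraries.

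RNA sequencing had been carried out on KELLY, a MYCN-amplified neuroblastoma line of human origin, to learn what changes when RUNX1T1, a transcriptional co-repressor, is depleted. The cell culture part held 18 libraries in 6 groups of 3. Every line carried a doxycycline-inducible lentiviral vector, which was empty (EV, labelled F1HUTG) or encoded a hairpin against RUNX1T1 called sh4 or shAMB, and each was kept for 72 h with doxycycline or with DMSO, the solvent. The xenograft part held 4 tumors from mice on control food, labelled WT, and 4 from mice on doxycycline food, labelled RUNX1T1 KO. The methods describe hairpin-bearing cells under the skin of NOD SCID gamma mice, which lack lymphocytes but keep macrophages, vessels and stroma. The labels name neither the hairpin of the sequenced tumors nor whether a line was 1 clone (the study describes its KELLY xenografts as bearing the hairpin derived from an Ambion siRNA), and a hairpin lowers a transcript rather than deleting its gene. In the culture table the columns carry the words Neg and Pos, taken here to stand for DMSO and doxycycline, and every direction given for the lines depends on this. Replicates are separate samples per the labels, and nothing says that the 3 libraries of a culture group came from separate cultures, so p-values may measure technical spread in part.

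The proteasome is the protease complex that degrades proteins tagged with ubiquitin. Its barrel-shaped core stacks rings of alpha subunits, which gate the entry pore, around rings of beta subunits, of which PSMB5, PSMB6 and PSMB7 carry the proteolytic sites. The cap recognizes, deubiquitinates and unfolds substrates, and separate chaperones guide the building of core and cap. MYCN, the oncogene amplified in this line, drives genes of ribosomes and protein production.

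Total expected counts per library were 35115915 to 54736733 in culture and 47346063 to 62378060 in xenografts. The level of RUNX1T1 RNA, the targeted gene, did not pass the test in any of the 4 comparisons. It was 39.3 to 44.1 CPM (counts scaled to library size after TMM adjustment) in EV DMSO and 36.5 to 38.6 CPM in EV doxycycline libraries, 33.3 to 35.01 and 30.1 to 33.9 CPM in sh4, 39.9 to 42.00 and 41.3 to 44.1 CPM in shAMB, and 30.00 to 43.1 and 24.3 to 35.2 CPM in control tumors and tumors labelled KO. The log2 fold changes were -0.16, -0.11, 0.06 and -0.23, with adjusted p = 0.672, 0.117, 0.378 and 0.229. Between lines, the shAMB effect on RUNX1T1 lay above the EV effect in the edgeR test (difference 0.21, adjusted p = 0.0353). The sh4 effect differed from neither past the threshold (0.04 against EV and -0.17 against shAMB). Group names below are therefore the labels of the libraries and not evidence of depletion. The study itself reports lower RUNX1T1 protein in KELLY cells carrying hairpins against it after doxycycline. It also reports loss of RUNX1T1 staining in KELLY tumors of mice given doxycycline. Protein cannot be read from these RNA libraries. All 12 neuroblastoma markers were expressed in every group, and their summed level was 5162 to 5418 CPM in shAMB DMSO and 9032 to 9866 CPM in shAMB doxycycline, and it was 5645 to 6812 CPM in control tumors and 8474 to 11800.4 CPM in tumors labelled KO. MYCN made up the difference, with means of 2128 and 6316 CPM in shAMB and 2595 and 7157 CPM in the tumors. The other 11 markers summed to 3033 to 3298 and 3089 to 3333 CPM in shAMB, and to 3137 to 4133 and 2363 to 3778 CPM in the tumors, overlapping in both. Single markers among them moved both ways on average. In shAMB, STMN2 (483 and 165 CPM) and HAND2 (345 and 237 CPM) were lower, and PHOX2A (44.5 and 131 CPM) and CHGB (216 and 335 CPM) were higher. In the tumors, CHGA (1821 and 1371 CPM) and DBH (485 and 340 CPM) were lower, and CHGB (223 and 478 CPM) and ISL1 (63.3 and 121 CPM) were higher. Of the host cell lists, 8 macrophage markers summed to 1.28 to 1.81 CPM in control tumors and 2.18 to 2.96 CPM in tumors labelled KO, 7 endothelial ones to at most 1.96 CPM, 5 erythroid ones to at most 0.25 CPM with HBA1, HBA2 and HBB at 0, and 7 fibroblast ones to 15.6 to 27.1 and 20.1 to 32.3 CPM. In EV DMSO cultures, which hold no host cells, the macrophage, endothelial and fibroblast lists summed to 0.66 to 1.07, 1.43 to 1.96 and 45.3 to 51.9 CPM. Reads were aligned to hg38, the human genome, so the amount of mouse RNA cannot be read from these sums. The part of host cells in the xenograft differences was not tested. In bulk RNA, fewer cells of a type cannot be told apart from less RNA per cell.

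The level of one gene was compared with another only as CPM per kilobase of gene length. In EV DMSO libraries the 43 tested members spanned 7.59 to 282 CPM per kilobase, a ratio of 37.2 between the highest and the lowest. PSMB1, PSMA2 and PSMB4 were highest at 282, 277 and 270 CPM per kilobase, and the core rings had medians of 226 (alpha) and 190 (beta). Within the beta ring PSMB2 stood at 53.1 CPM per kilobase, and within the alpha ring PSMA5 stood at 61.1, although each core holds these subunits in equal numbers. These low values rest on gene lengths of 4733 bases (PSMB2) and 3819 bases (PSMA5), against at most 1466 bases (PSMA2) for the other ring genes. Whether these lengths match the transcripts present was not tested. The cap ATPases had a median of 122 CPM per kilobase, the other cap subunits 88.9, the 20S chaperones 44.1 and the activators 42.4. PSMG4 (7.59), PSMD9 (9.68) and PSME1 (19.98) were the lowest. Control xenografts, normalized separately and so not tested against culture, had 5.44 to 221 CPM per kilobase with PSMB4, PSMA7 and PSMD4 highest and PSMG4, PSMD9 and PSME1 again lowest. PSMA8 had no count in any library, and PSMB11 had 0 to 9 counts.

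**Figure D1:**
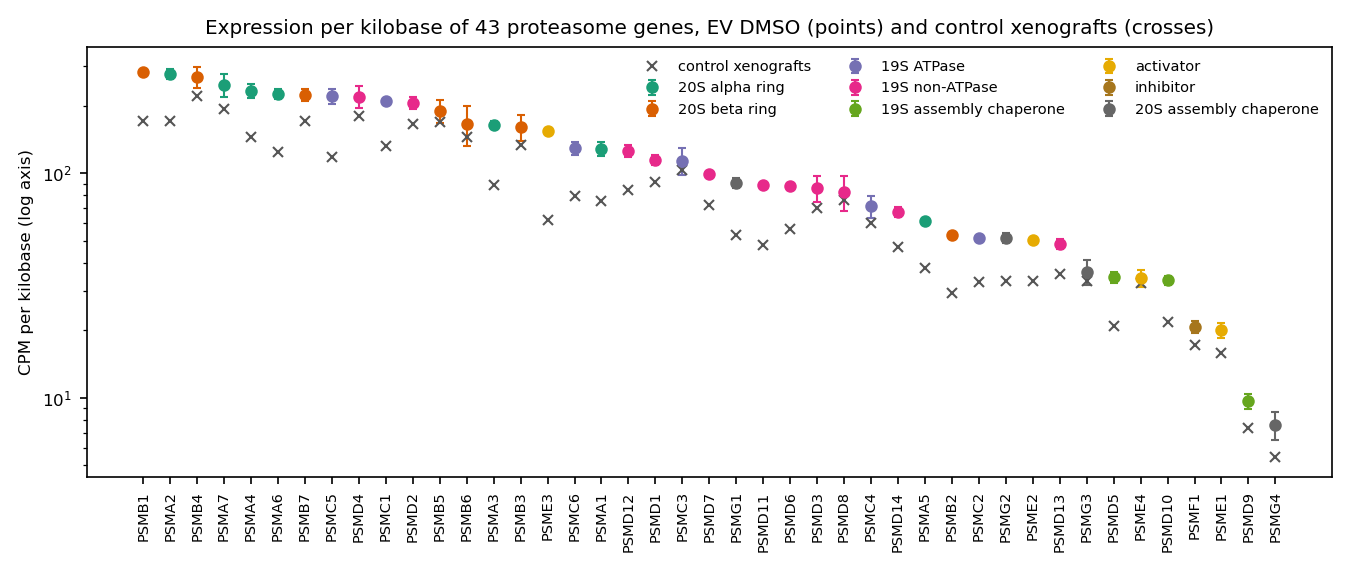
Mean CPM per kilobase (log axis) of the 43 tested proteasome genes, ordered by level in EV DMSO libraries (colored points by role, bars SD, n = 3), with means of the 4 control xenografts as crosses. Core ring genes fill most of the left side and PSMD9 and PSMG4 stand lowest in both.

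The starts of genes that moved most are shown because many members moved together. Promoter windows of 250 bases before to 50 bases after the RefSeq start (GRCh38.p14) were found for 39 of the 45 members, and not for PSMA7, PSMB1, PSMB6, PSMB7, PSMD4 and PSMG3. Each sequence below lies upstream of its start, stops before the first annotated exon and reads 5′ to 3′ on the strand of the gene, with motif matches in capitals. PSMB5, encoding the chymotrypsin-like subunit, and PSMB4, a structural subunit of the same ring, had the largest decreases of the members in shAMB and in xenografts, and PSME1, an activator subunit, had the largest increase in each.
PSMB5, chr14:23035231-23035470, minus strand: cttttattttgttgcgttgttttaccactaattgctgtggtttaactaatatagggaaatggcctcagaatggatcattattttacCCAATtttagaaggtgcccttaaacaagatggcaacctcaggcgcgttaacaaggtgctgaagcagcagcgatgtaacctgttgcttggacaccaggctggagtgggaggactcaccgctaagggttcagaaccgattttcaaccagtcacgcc
PSMB4, chr1:151399323-151399559, plus strand: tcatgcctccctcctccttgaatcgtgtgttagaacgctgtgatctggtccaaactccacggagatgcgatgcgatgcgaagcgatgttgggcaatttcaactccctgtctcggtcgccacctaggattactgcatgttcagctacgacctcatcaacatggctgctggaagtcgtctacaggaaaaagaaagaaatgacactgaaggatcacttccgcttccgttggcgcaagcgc
PSME1, chr14:24135944-24136162, plus strand: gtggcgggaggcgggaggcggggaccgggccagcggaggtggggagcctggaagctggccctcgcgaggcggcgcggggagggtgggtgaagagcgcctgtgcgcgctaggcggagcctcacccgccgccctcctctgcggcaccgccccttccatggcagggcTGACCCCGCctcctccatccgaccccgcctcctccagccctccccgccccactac
The capitals mark CCAAT in PSMB5 and the antioxidant response element TGACNNNGC in PSME1. This element, searched on both strands, was in the windows of 14 of 39 members (35.9%) and of 16.1% of the 27305 genes with a window. It is the sequence bound by NFE2L1 and NFE2L2, transcription factors known to raise proteasome genes. Its copies that lay outside exons are shown with 10 flanking bases on either side for 5 more members.
PSMD3, chr17:39980760-39980788, plus strand: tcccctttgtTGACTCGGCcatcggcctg
PSMB3, chr17:38752627-38752655, plus strand: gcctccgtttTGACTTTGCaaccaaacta
PSMD9, chr12:121888678-121888706, plus strand: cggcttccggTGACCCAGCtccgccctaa
PSMG1, chr21:39183616-39183644, minus strand: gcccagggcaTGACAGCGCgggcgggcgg
PSMD12, chr17:67366724-67366752, minus strand: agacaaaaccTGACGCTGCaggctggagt
CCGGAAG, an ETS factor site, was in 15 of 39 member windows (38.5%) and in 12.2% of all. CCAAT was in 19 (48.7%) against 39.7%, and CACGTG, the E-box read by MYC proteins, was in 3 (7.69%) against 8.77%. The window of PSMB4 held none of these 4 motifs. A match is a description of letters and does not show binding.

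Doxycycline in the shAMB line was accompanied by lower levels of most proteasome genes, and in the xenografts labelled KO 21 of 43 were lower. In the sh4 line fewer members changed and by less, and in the empty vector line none did. The edgeR quasi-likelihood test with Benjamini-Hochberg adjustment over all genes was used throughout, and a gene with adjusted p under 0.05 is called changed. In EV, 0 of 43 members changed (0.0939% of all 14905 genes tested did), none had an unadjusted p under 0.05, and DESeq2 also called 0. In sh4, 2 members rose and 13 fell, 34.9% of members against 40.9% of all genes (22.9% higher and 18% lower). In shAMB, 4 rose and 30 fell, 79.1% against 66.0% of all genes (37.6% higher and 28.4% lower). In xenografts, 2 rose and 21 fell, 53.5% of members against 41.1% of the 15960 genes tested (21.2% higher and 19.9% lower). With a change of at least 1.5-fold required as well, 0, 12 and 8 members remained past the threshold in sh4, shAMB and xenografts, where 13.4%, 34.7% and 24.9% of all genes did. The median log2 fold change of the 43 members was 0.02, -0.14, -0.33 and -0.30 in EV, sh4, shAMB and xenografts, and that of all genes tested was 0.01, -0.00, 0.10 and 0.02. Libraries of the compared groups did not overlap for 4, 17, 36 and 20 members, where all genes gave 14.1%, 41.3%, 73.4% and 36.7%. The share of changed members in sh4 was thus below that of all genes. Of the 14 members with the antioxidant response element, all tested, 7 fell and 3 rose in shAMB, with a median log2 fold change of -0.17. Of the 23 tested members with a promoter window but without the element, 20 fell and none rose, with a median of -0.39. In sh4, 5 of the 14 fell and 0 rose (median -0.17), and 5 of the 23 fell and 1 rose (-0.12). In xenografts, 4 of the 14 fell and 1 rose (-0.175), and 13 of the 23 fell and 0 rose (-0.32). The split was not tested and not counted over all genes.

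Most called members were higher in sh4 when TPM (length-scaled transcript abundance) was tested with limma, an alternative that changes scale and test together. With it, 8 members rose and 3 fell in sh4, with a median of 0.03, while the median of all genes moved up by 0.13. With the same alternative 8 rose and 21 fell in shAMB, where the median of all genes moved up by 0.11, and 0 rose and 2 fell in xenografts, where the 10 genes of highest TPM held 54.0% to 72.2% of all TPM (6.55% to 8.40% in culture). Of all 14905 genes, it called 5805 higher and 1386 lower in sh4, and 7515 higher and 2777 lower in shAMB. In xenografts it called 1432 of all 15960 genes higher and 536 lower. With trends in GC content and gene length removed, 10 members rose and 27 fell in shAMB. In xenografts 7 rose and 22 fell, and in sh4 3 rose and 21 fell. Of all genes, 5706 rose and 4995 fell in shAMB with these trends removed. In xenografts 4298 of all genes rose and 4095 fell, and in sh4 4195 rose and 4000 fell. With upper quartile factors 4 members rose and 15 fell in xenografts, where 4254 of all genes rose and 2480 fell.

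**Figure D2:**
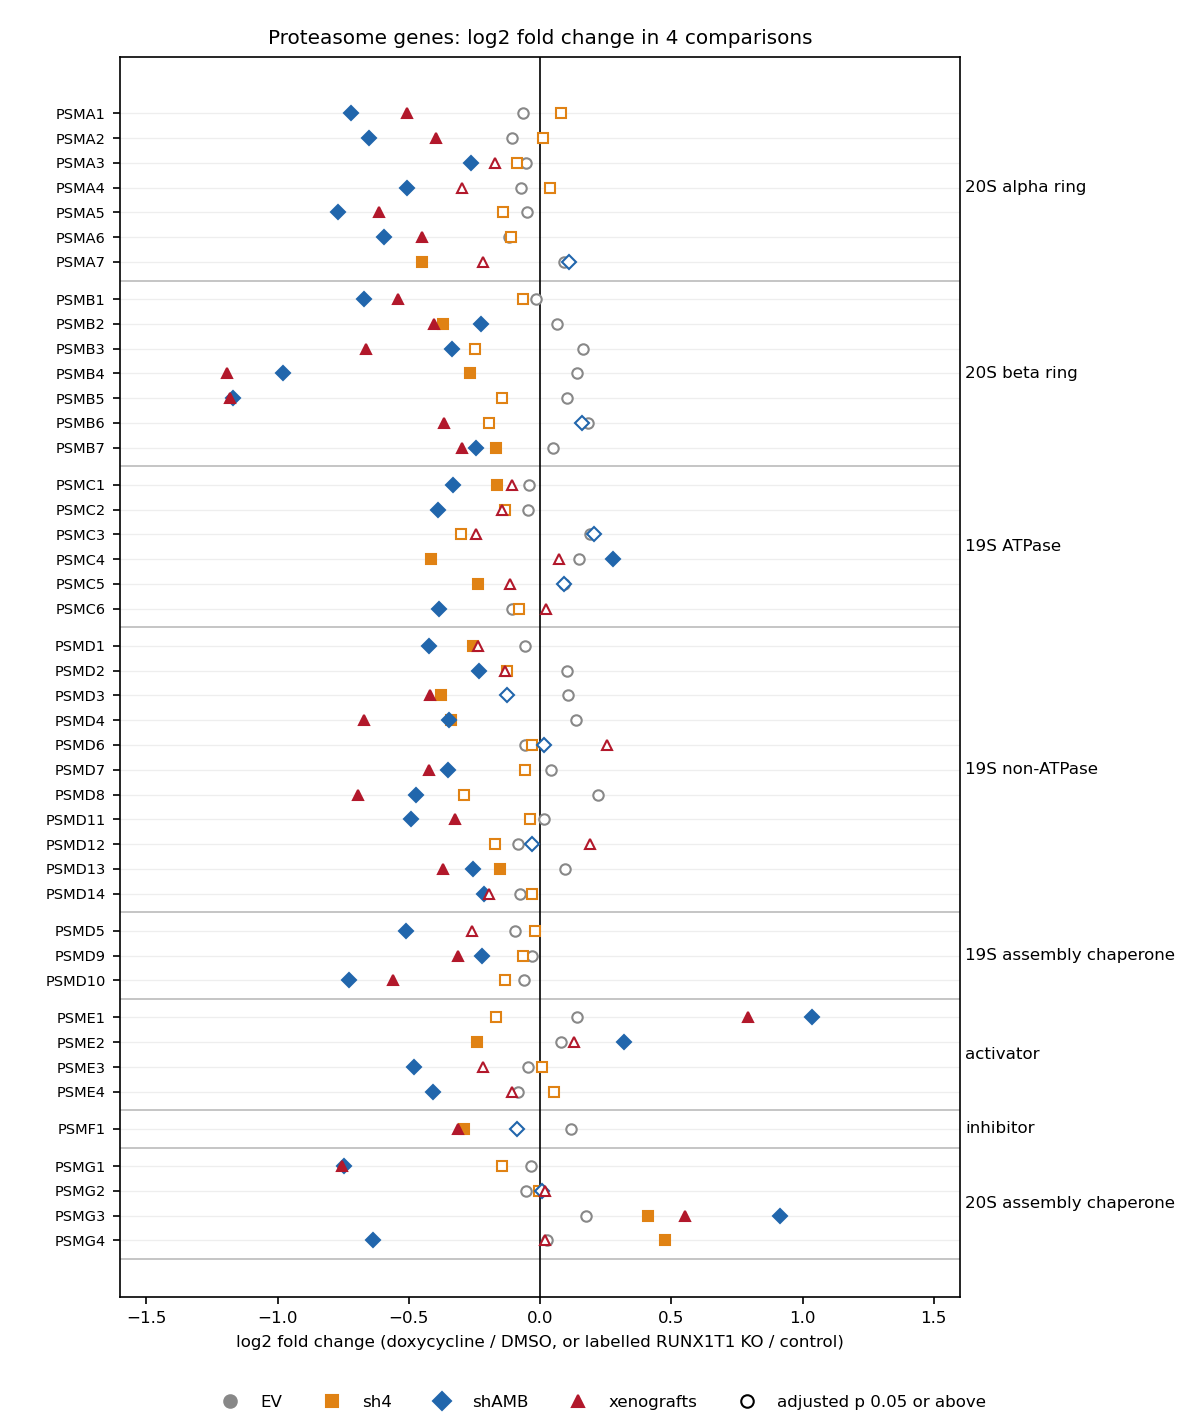
Log2 fold change (horizontal axis) of the 43 tested proteasome genes, by role, for doxycycline against DMSO in EV, sh4 and shAMB (n = 3 against 3) and for xenografts labelled KO against control (n = 4 against 4), with filled symbols for adjusted p under 0.05. Filled shAMB and xenograft symbols lie mostly left of 0, with PSMB4 and PSMB5 farthest left and PSME1 and PSMG3 farthest right.

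Summed over the 45 members, the level was 8608 ± 154 CPM in shAMB DMSO and 6865 ± 220.4 CPM in shAMB doxycycline libraries (SD, n = 3). It was 5811 ± 482 CPM in control tumors and 4719.9 ± 255 CPM in tumors labelled KO (n = 4), 8705 ± 152 and 7859 ± 10.7 CPM in sh4, and 8441 ± 152 and 8556 ± 62.7 CPM in EV. The groups overlapped in EV alone of these 4 pairs. The beta ring summed to 1408 ± 71.04 and 1007 ± 40.7 CPM in shAMB and to 1080.4 ± 118 and 684 ± 54.6 CPM in the tumors. The 19S ATPases summed to 1332 ± 11.1 and 1248 ± 38.4 CPM in shAMB and to 858 ± 83.01 and 806 ± 48.2 CPM in the tumors, a smaller step than that of the beta ring. These sums carry no test. Below, values of DMSO or control libraries come first and those of doxycycline or KO libraries second.

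Among the 7 beta subunits, 6 fell in shAMB, all 7 in xenografts and 3 in sh4. PSMB5 (chromosome 14, 23025851 to 23035220, minus strand), the chymotrypsin-like subunit and the main target of bortezomib, stood at 185, 178 and 208 CPM in shAMB DMSO and at 79.99, 89.2 and 84.8 CPM in shAMB doxycycline libraries. In control tumors it stood at 173, 156, 200.4 and 185 CPM and in tumors labelled KO at 82.9, 74.1, 86.9 and 71.01 CPM. Neither pair of groups overlapped, and PSMB5 fell 2.25-fold in shAMB (log2 fold change -1.17, SE 0.10, adjusted p = 6.66e-08) and 2.27-fold in xenografts (log2 fold change -1.18, SE 0.10, adjusted p = 1.88e-05). In sh4 it was 249, 246 and 217 CPM with DMSO and 191, 207 and 246 CPM with doxycycline, which overlapped (log2 fold change -0.15, SE 0.098, adjusted p = 0.254), as did EV (179, 199 and 227 and 217, 229.6 and 203 CPM).

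PSMB4 (chromosome 1, 151399573 to 151401937, plus strand), a structural beta subunit, was at 229, 214 and 256 CPM in shAMB DMSO and 114, 125 and 116 CPM in shAMB doxycycline libraries. Control tumors had 183, 181, 242 and 212 CPM and tumors labelled KO 99.8, 81.3, 101 and 76.03 CPM. Both pairs were separate, with a 1.97-fold fall in shAMB (log2 fold change -0.98, SE 0.096, adjusted p = 2.98e-07) and a 2.28-fold fall in xenografts (log2 fold change -1.19, SE 0.13, adjusted p = 6.26e-05). In sh4 the values were 322, 302 and 272 and 223, 239 and 282 CPM, which overlapped, and the fall there (log2 fold change -0.27, SE 0.095, adjusted p = 0.0329) did not pass the threshold without sh4 DMSO replicate 1 or 2 or sh4 doxycycline replicate 1 or 2 (log2 fold changes -0.23, -0.26, -0.20 and -0.24), nor with the GC and length trends removed (-0.13).

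The other catalytic subunits moved less. PSMB7, the trypsin-like subunit, was at 234, 229.9 and 239 CPM and 201, 204 and 188 CPM in shAMB, at 239, 247 and 236 and 209, 219 and 216 CPM in sh4, and at 187, 151, 184 and 173 and 135, 130.1, 156 and 145 CPM in control tumors and tumors labelled KO. The culture groups did not overlap and the tumors did. It fell in each (log2 fold changes -0.24, -0.17 and -0.30, adjusted p = 0.00014, 0.006 and 0.0268), but with the GC and length trends removed none of the 3 calls held (-0.04, -0.05 and -0.06), and the xenograft call was also lost without control tumor 3 or 4 or tumor 2 labelled KO (-0.28, -0.31 and -0.26). PSMB6, the caspase-like subunit, was at 125, 110.4 and 135 and 128, 145 and 139.7 CPM in shAMB (log2 fold change 0.16, SE 0.16, adjusted p = 0.396), at 198, 182 and 158 and 122, 146 and 201 CPM in the sh4 libraries (log2 fold change -0.20, SE 0.16, adjusted p = 0.349) and at 103, 108, 144 and 137 and 109, 85.9, 106 and 82.2 CPM in the tumors. All 3 pairs overlapped. Only in xenografts was it past the threshold (log2 fold change -0.37, SE 0.13, adjusted p = 0.0495), and there it was lost without control tumor 3 or 4 or without tumor 2, 3 or 4 labelled KO (-0.29, -0.32, -0.32, -0.44 and -0.30), and in sh4 it fell without doxycycline replicate 3 (-0.42). Of the other beta genes PSMB1 fell in shAMB and xenografts (-0.67 and -0.54), as did PSMB3 (-0.33 and -0.66), and PSMB2 fell in these and in sh4 (-0.23, -0.40 and -0.37).

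Of the 7 alpha subunits, 6 fell in shAMB, 4 in xenografts and 1 in sh4. PSMA5 (chromosome 1, 109399042 to 109426448, minus strand) was at 221, 247 and 252 CPM in shAMB DMSO and 147, 146 and 129 CPM in shAMB doxycycline libraries, and at 164, 117, 161 and 136 and 92.00, 86.3, 102 and 97.97 CPM in the tumors. Neither pair overlapped (log2 fold change -0.77, SE 0.068, adjusted p = 9.03e-08 in shAMB and log2 fold change -0.61, SE 0.11, adjusted p = 0.00155 in xenografts). In sh4 it was at 212, 232 and 230.4 and 217, 209.6 and 185 CPM, which overlapped (log2 fold change -0.14, SE 0.067, adjusted p = 0.111). PSMA7 was the exception of the ring, with 346, 318 and 274 CPM in sh4 DMSO and 206, 209 and 272 CPM in sh4 doxycycline libraries, which did not overlap (log2 fold change -0.45, SE 0.11, adjusted p = 0.00304), but 249, 245 and 261 and 249.9, 285 and 279.8 CPM in shAMB, which did (log2 fold change 0.11, SE 0.11, adjusted p = 0.381), and 184, 187, 227 and 198 and 186, 155, 192 and 152 CPM in the tumors, which did as well (log2 fold change -0.22, SE 0.11, adjusted p = 0.132). With the GC and length trends removed PSMA7 rose in shAMB (0.25), as it did with TPM and limma (0.29). PSMA1, PSMA2 and PSMA6 fell in both shAMB (-0.72, -0.65 and -0.59) and xenografts (-0.51, -0.40 and -0.45), while PSMA3 and PSMA4 fell in shAMB (-0.26 and -0.51).

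The 6 ATPases that unfold substrates were mixed. In shAMB, PSMC1, PSMC2 and PSMC6 fell (-0.33, -0.39 and -0.38) and PSMC4 rose, in sh4 PSMC1, PSMC4 and PSMC5 fell (-0.16, -0.41 and -0.24), and in xenografts none of the 6 passed the test, none had an unadjusted p under 0.05, and their log2 fold changes ran from -0.24 to 0.07. PSMC4 (chromosome 19, 39971165 to 39981764, plus strand) was at 169, 164 and 147 CPM and 111, 113 and 136 CPM in the sh4 libraries (log2 fold change -0.41, SE 0.084, adjusted p = 0.000964). In shAMB it was at 134, 131 and 139 CPM and 154, 170.4 and 166 CPM (log2 fold change 0.28, SE 0.084, adjusted p = 0.00844). Both pairs were separate and in opposite directions. The tumors had 103, 101, 129.8 and 125 and 131, 115, 132 and 106 CPM, which overlapped. PSMC1 is uncertain, since 76.1% of its exon sequence lies in exons of the other strand and 13 pseudogenes are named after it, and it is not stated whether counting used the strand.

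Of the 11 other cap subunits, 8 fell in shAMB, 6 in xenografts and 4 in sh4, and none rose. PSMD4, a ubiquitin receptor, fell in all 3 (-0.35, -0.67 and -0.34), as did PSMD13 (-0.25, -0.37 and -0.15). PSMD8, PSMD7 and PSMD11 fell in shAMB (-0.47, -0.35 and -0.49) and xenografts (-0.69, -0.42 and -0.32). PSMD14, the deubiquitinase that removes the ubiquitin chain, was at 119, 131 and 124 CPM and 112, 110.1 and 99.6 CPM in shAMB, which did not overlap (log2 fold change -0.22, SE 0.069, adjusted p = 0.0128). That call was lost without shAMB DMSO replicate 2 or shAMB doxycycline replicate 3 (-0.18 and -0.17), and with the GC and length trends removed the sign turned (0.05). In sh4 it was at 99.9, 109.7 and 112 and 113, 108 and 93.9 CPM and in the tumors at 93.4, 66.5, 82.6 and 80.2 and 64.5, 67.3, 73.7 and 76.6 CPM, both overlapping (log2 fold changes -0.03 and -0.19, adjusted p = 0.742 and 0.18), and without control tumor 2 the fall in xenografts passed the threshold (-0.28).

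PSMD3, a scaffold subunit of the cap, was at 239.8, 222 and 202 CPM in sh4 DMSO and 155, 159.7 and 198 CPM in sh4 doxycycline libraries (log2 fold change -0.38, SE 0.10, adjusted p = 0.00655). Control tumors had 138, 139, 174 and 165 CPM and tumors labelled KO 132, 101, 128 and 100 CPM (log2 fold change -0.42, SE 0.12, adjusted p = 0.0186). Neither pair overlapped, but the xenograft call was lost without control tumor 3 or 4 or tumor 2 labelled KO (-0.36, -0.39 and -0.36). In shAMB the values, 179.9, 164 and 192 and 157, 169.6 and 165 CPM, overlapped (log2 fold change -0.13, SE 0.10, adjusted p = 0.276). PSMD6 and PSMD12 changed in none of the 3.

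The 4 chaperones of 20S assembly differed from each other in direction. PSMG1 (chromosome 21, 39174769 to 39183514, minus strand), a chaperone of alpha ring assembly, was at 104, 112 and 105 CPM and 65.5, 65.3 and 60.4 CPM in shAMB and at 67.1, 48.03, 61.2 and 63.6 CPM and 32.4, 34.8, 36.9 and 38.2 CPM in the tumors. Both pairs were separate (log2 fold change -0.75, SE 0.063, adjusted p = 5.91e-08 in shAMB and log2 fold change -0.75, SE 0.11, adjusted p = 0.000436 in xenografts). Its values in sh4 overlapped, at 86.6, 94.4 and 97.8 and 90.3, 84.8 and 76.6 CPM (log2 fold change -0.15, SE 0.063, adjusted p = 0.0748), and passed the threshold without replicate 1 of either sh4 group (-0.21 and -0.20). PSMG2, its partner in a heterodimer, changed in none of the 3 (-0.01, 0.01 and 0.02 in sh4, shAMB and xenografts).

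PSMG3 and PSMG4 also form a heterodimer, and these genes moved apart in shAMB. PSMG3 (chromosome 7, 1567332 to 1570032, minus strand) was at 34.4, 28.7 and 34.1 CPM and 55.7, 66.9 and 60.6 CPM in shAMB (log2 fold change 0.91, SE 0.13, adjusted p = 1.16e-05), and at 25.99, 29.9, 31.8 and 34.8 CPM and 50.9, 45.4, 46.8 and 37.03 CPM in the tumors (log2 fold change 0.55, SE 0.12, adjusted p = 0.00428). In sh4 it was at 47.5, 42.7 and 36.7 CPM and 49.3, 52.8 and 67.03 CPM (log2 fold change 0.41, SE 0.12, adjusted p = 0.0146). None of the 3 pairs overlapped, and it was the 1 member that rose in all 3, although in sh4 the call was lost without DMSO replicate 3 or doxycycline replicate 3 (0.32 and 0.27). PSMG4 (chromosome 6, 3254404 to 3268049, plus strand), with 186 to 409 counts a library, was at 6.19, 5.94 and 6.05 CPM and 9.04, 7.96 and 8.32 CPM in the sh4 libraries (log2 fold change 0.48, SE 0.10, adjusted p = 0.00174), and at 6.80, 6.19 and 6.82 CPM and 4.39, 4.07 and 4.29 CPM in shAMB (log2 fold change -0.64, SE 0.11, adjusted p = 9.26e-05). It thus rose in one line and fell in the other without overlap in either, while the tumors overlapped (5.14, 4.27, 4.46 and 4.18 and 4.55, 4.93, 4.41 and 4.42 CPM). Exons of the other strand cover 15.0% of its exon sequence. Of the 19S chaperones, PSMD10 fell in shAMB and xenografts (-0.73 and -0.56), as did PSMD9 (-0.22 and -0.31), and PSMD5 fell in shAMB (-0.51).

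The 4 activators, which open the core without the cap, differed in direction in shAMB. PSME1 (chromosome 14, 24136194 to 24138962, plus strand), a subunit of the interferon-inducible activator PA28, was at 17.7, 18.8 and 21.4 CPM and 39.3, 41.7 and 37.6 CPM in shAMB. Control tumors had 15.3, 11.99, 19.7 and 17.2 CPM and tumors labelled KO 24.3, 28.2, 30.6 and 28.2 CPM. Both pairs were separate, and PSME1 rose 2.05-fold in shAMB (log2 fold change 1.03, SE 0.076, adjusted p = 1.14e-08) and 1.73-fold in xenografts (log2 fold change 0.79, SE 0.15, adjusted p = 0.00177), the largest rise of a member in each. In sh4 it was at 21.9, 20.98 and 21.1 and 19.5, 17.9 and 19.6 CPM, lower with doxycycline in 3 of 3 libraries but not past the threshold (log2 fold change -0.17, SE 0.076, adjusted p = 0.0905). In EV the doxycycline libraries, at 23.4, 21.98 and 21.3 CPM, lay narrowly above the DMSO libraries, at 18.5, 21.3 and 20.7 CPM, also not past the threshold (log2 fold change 0.14, SE 0.076, adjusted p = 0.672). PSME2, the other subunit of PA28, was at 40.3, 38.1 and 42.7 CPM and 50.5, 51.8 and 48.8 CPM in shAMB (log2 fold change 0.32, SE 0.052, adjusted p = 6.32e-05) and at 43.9, 44.4 and 42.4 CPM and 37.4, 37.2 and 36.1 CPM in the sh4 libraries (log2 fold change -0.24, SE 0.052, adjusted p = 0.00153), separate in both and in opposite directions. The tumors overlapped for PSME2 (27.1, 24.1, 30.1 and 28.9 and 31.4, 29.2, 33.1 and 26.7 CPM, log2 fold change 0.13, SE 0.11, adjusted p = 0.371). PSME3, a nuclear activator, and PSME4, known as PA200, fell in shAMB (-0.48 and -0.41), and neither changed in sh4 or in xenografts. PSMF1, the inhibitor PI31, fell in sh4 and xenografts (-0.29 and -0.31).

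**Figure D3:**
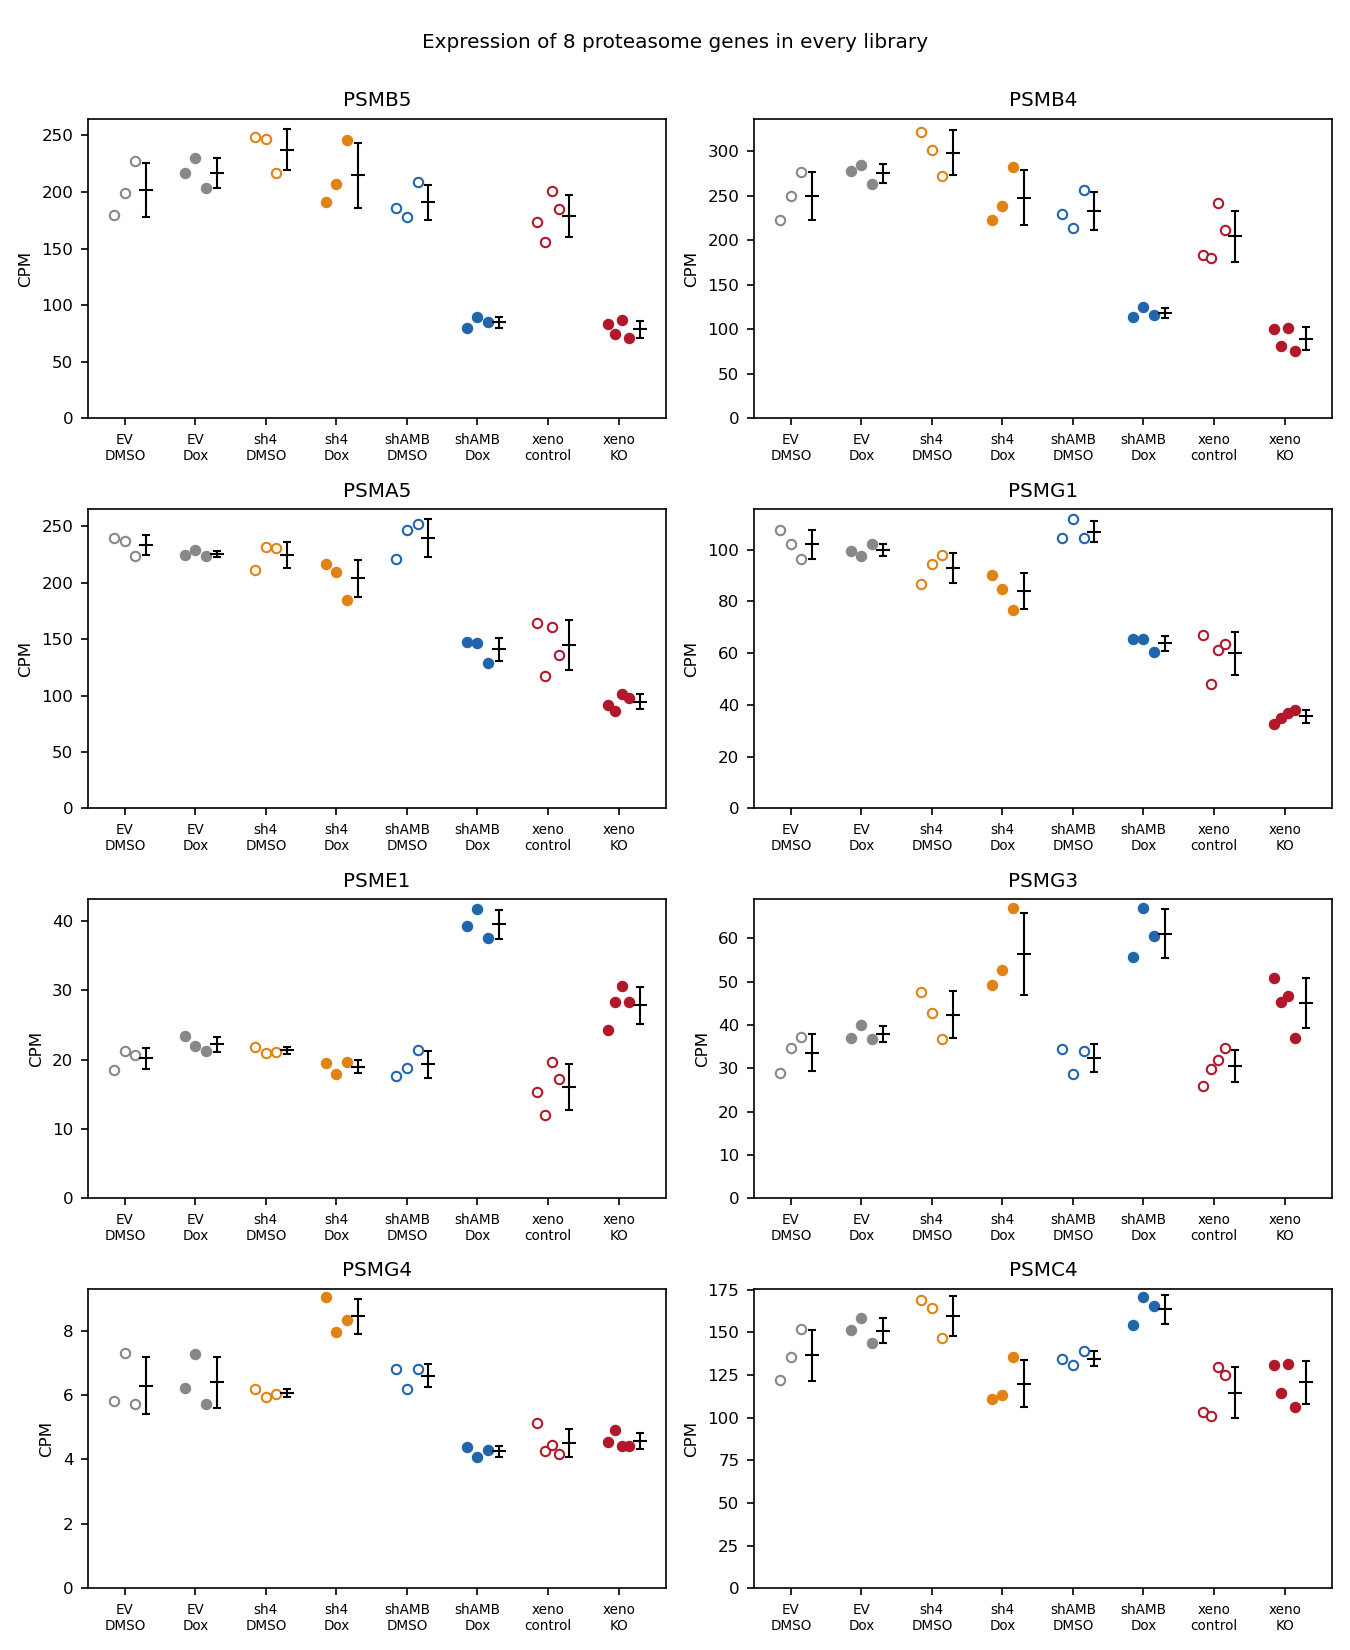
CPM (vertical axes from 0) of 8 proteasome genes in each of the 26 libraries, open points for DMSO or control food and filled points for doxycycline or tumors labelled KO, with the mean and SD of each group in black. PSMB5, PSMB4, PSMA5 and PSMG1 are low in shAMB doxycycline and in tumors labelled KO, PSME1 and PSMG3 are high there, and PSMG4 and PSMC4 move in opposite directions in sh4 and shAMB.

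The EV libraries, in which no member changed, gave the following values for the other 12 genes described by library. In the core, PSMA5 was at 239.7, 237 and 224 CPM with DMSO and 225, 229 and 223 CPM with doxycycline. PSMA7 was at 227, 256 and 284 CPM with DMSO and 276, 280.2 and 259.7 CPM with doxycycline. PSMB4 was at 222, 249 and 277 CPM with DMSO and 277, 284 and 263 CPM with doxycycline. The groups overlapped for all 3, and did so for the catalytic subunits PSMB6 and PSMB7. PSMB6 was at 115, 138 and 171 CPM with DMSO and 164, 173 and 144 CPM with doxycycline. PSMB7 was at 213, 230.2 and 239 CPM with DMSO and 235, 237 and 233 CPM with doxycycline. Next come subunits of the cap, an ATPase, the scaffold subunit and the deubiquitinase. PSMC4 was at 122, 135 and 152 CPM with DMSO and 151, 159 and 143 CPM with doxycycline. PSMD3 was at 163, 190.4 and 211 CPM with DMSO and 208, 206 and 194 CPM with doxycycline. PSMD14 was at 122, 115 and 109.5 CPM with DMSO and 111, 106 and 111 CPM with doxycycline. The groups overlapped for all 3, and likewise for the activator subunit PSME2. PSME2 was at 40.5, 42.00 and 43.3 CPM with DMSO and 45.2, 46.03 and 41.6 CPM with doxycycline. The chaperone genes overlapped too. PSMG1 was at 107, 102 and 96.2 CPM with DMSO and 99.4, 97.5 and 102 CPM with doxycycline. PSMG3 was at 28.9, 34.6 and 37.3 CPM with DMSO and 37.01, 39.97 and 36.7 CPM with doxycycline. PSMG4 was at 5.82, 7.31 and 5.74 CPM with DMSO and 6.21, 7.27 and 5.73 CPM with doxycycline.

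The effects of doxycycline were compared between lines in the same fit. Against EV, the sh4 effect was lower for 16 members and higher for 1 (32.6% of all genes differed, 17.8% higher and 14.7% lower), and the shAMB effect was lower for 26 and higher for 3 (45.5% of all genes differed, 23.7% higher and 21.7% lower). Between the hairpin lines, the sh4 effect was above the shAMB effect for 18 members and below it for 7, where 60.9% of all genes differed (27.8% above and 33.1% below). At 1.5-fold or more, 0, 11 and 11 members differed in these 3 comparisons, and 14.3%, 24.9% and 38.9% of all genes. For the sh4 and EV difference, leaving out EV DMSO replicate 1, EV doxycycline replicate 1 or 2, sh4 DMSO replicate 1 or 2 or sh4 doxycycline replicate 1 left 10, 9, 10, 11, 9 and 11 members, and with TPM and limma 14 were higher and 2 lower. With TPM and limma 6 were higher and 14 lower in the shAMB and EV difference. Of all genes, TPM and limma called 5225 higher and 1018 lower in the sh4 and EV difference. In the shAMB and EV difference 5935 of all genes were higher and 1803 lower. PSMB5 differed by 1.03 on the log2 scale between sh4 and shAMB, PSMG4 by 1.11 and PSME1 by -1.20 (adjusted p = 1.7e-05, 1.47e-05 and 1.84e-07). In all, 18 members fell in both shAMB and xenografts, 7 in both sh4 and shAMB (53.8% of the 13 and 23.3% of the 30), and 5 in all 3 (PSMB2, PSMB4, PSMB7, PSMD4 and PSMD13). These 18 were 60.0% of the 30 that fell in shAMB and 85.7% of the 21 that fell in xenografts. Across the 43 members the log2 fold changes of shAMB and xenografts had a Pearson r of 0.81, those of sh4 and shAMB -0.08 and those of sh4 and xenografts 0.30. These describe genes, which are not independent replicates and share GC content and depth, and no p is given. Neither the shared falls nor these correlations were computed over all genes. Whether the overlap is particular to proteasome genes was therefore not tested. The study states that its KELLY RNA sequencing used shRNA1 in culture and in tumors, and shRNA2 in culture. It bases its sh #1 on an Ambion siRNA sequence, and the labels do not say whether shAMB is that hairpin. The shAMB line and the tumors may therefore share a hairpin, and their likeness is not that of hairpins known to be separate.

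**Figure D4:**
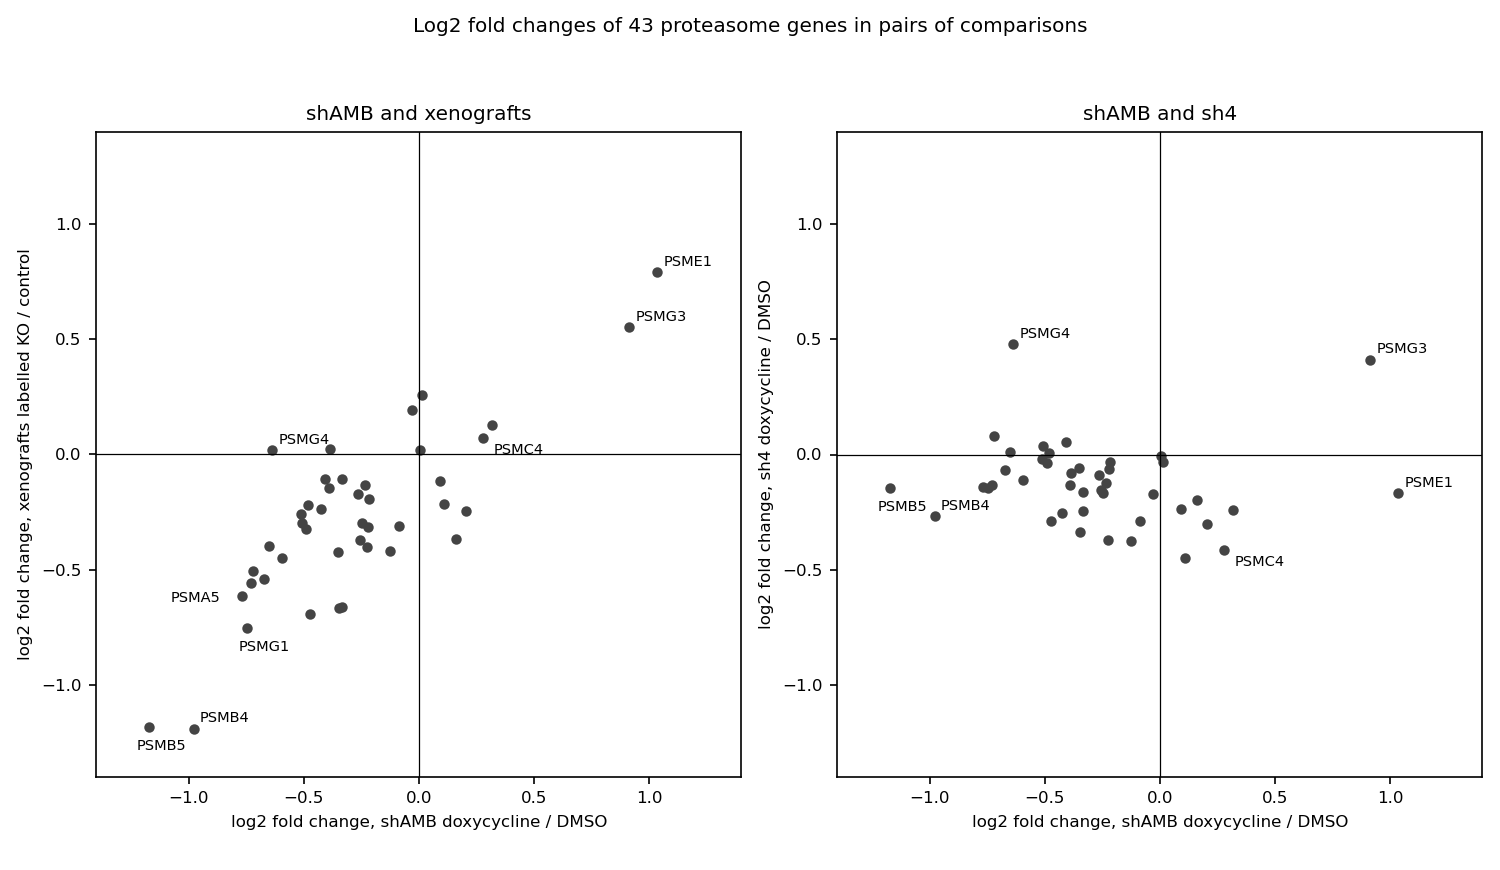
Log2 fold changes of the 43 proteasome genes in shAMB (horizontal) against xenografts labelled KO (left panel) and against sh4 (right panel), each point 1 gene. Points run along the diagonal on the left, from PSMB5 and PSMB4 to PSME1, and show no such slope on the right.

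Between the lines without doxycycline no member passed the threshold. Against EV DMSO, 0 of 43 members changed in sh4 DMSO (1.12% of all genes did) and 0 in shAMB DMSO (1.52%), with 17 and 2 members at an unadjusted p under 0.05, as were 4180 and 1639 of all 14905 genes, and 1 and 0 called by DESeq2. In sh4 DMSO, 21 members lay above EV DMSO and 22 below. All 7 beta ring genes lay above it (log2 fold changes 0.02 to 0.35), and 6 of the 7 alpha ring genes below. The falls of beta ring genes in sh4 thus started from levels above those of EV DMSO, none past the threshold. RUNX1T1 itself was lower in sh4 DMSO than in EV DMSO libraries (log2 fold change -0.29, adjusted p = 0.0144).

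GC content moved with the members' values in culture. The GC content of a gene was the median over its annotated transcripts, and it ran from 39.0% to 59.4% for the 43 members. Across them, GC content correlated with the log2 fold change with r = 0.88 in EV, where no member changed. The correlation was -0.18 in sh4, 0.43 in shAMB and 0.03 in xenografts. It was 0.84 in sh4 DMSO against EV DMSO and -0.71 in shAMB DMSO against EV DMSO. Over all genes with a GC value the same correlations were 0.43, -0.23, 0.44, 0.08, 0.53 and -0.26. The span of the members' log2 fold changes in EV was -0.12 to 0.22, against -1.17 to 1.03 in shAMB. The alternative with these trends removed gives the calls without them.

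**Figure D5:**
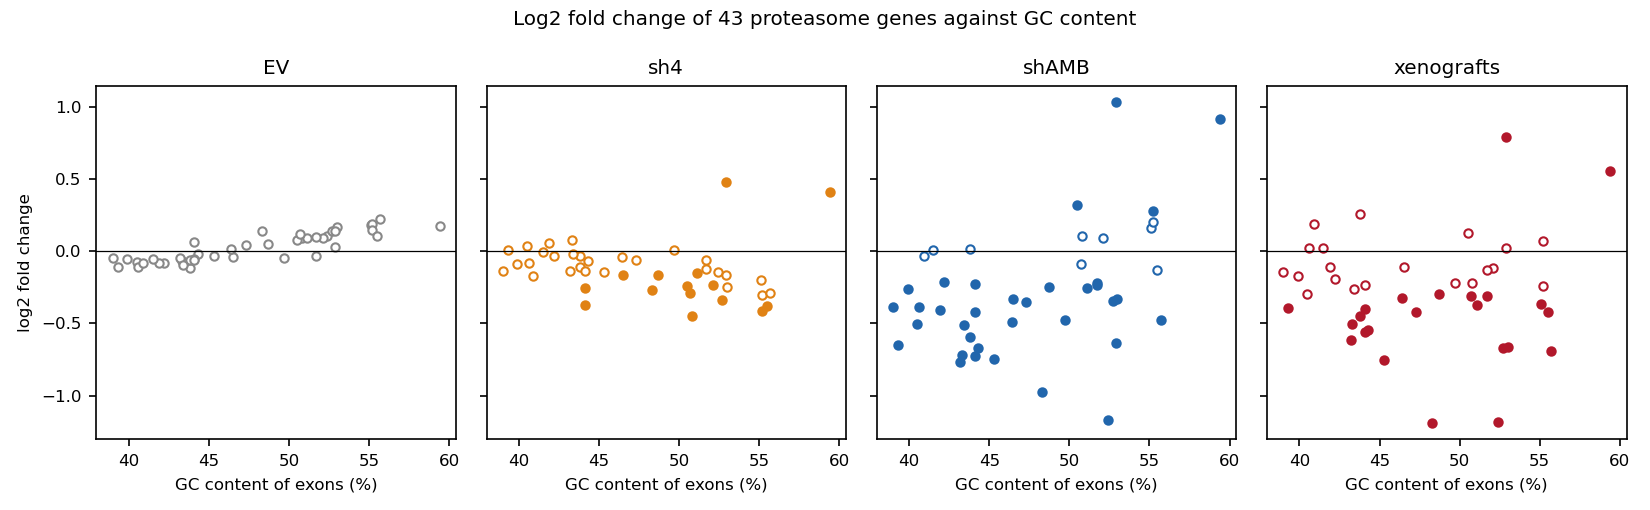
Log2 fold change (vertical axis) of the 43 proteasome genes against GC content (horizontal axis, %), filled for adjusted p under 0.05. GC content is the median over the annotated transcripts of a gene, although the axis names exons. Open points in EV rise with GC content within -0.12 to 0.22, while shAMB points span -1.17 to 1.03 and xenograft points -1.19 to 0.79.

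Annotation limits the reading of some members. Over 5% of exon sequence overlapped exons of the other strand for 10 members and exons of another gene on the same strand for 4, and 17 had pseudogenes named after them in GENCODE release 44. PSMD7 (31.2%) and PSMC5 (15.3%) followed PSMC1 on the other strand, and PSMA1 (26.7%), PSMA2 (17.2%) and PSMD9 (14.9%) shared part of their sequence on their own strand. Within the shared stretches, position alone does not assign a read to a single gene. For exons of the other strand this holds only if counting ignored the strand. PSMB4, PSMB5, PSMA5, PSMC4, PSMD3 and PSMG1 had no such overlap. For PSME2, 6.03% of exon sequence lay in exons of the other strand and 6 pseudogenes carry its name.

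The immunoproteasome subunits, which replace the catalytic subunits of the core in immune cells and after interferon, differed in level. PSMB9 had no count in any library and PSMB8 had at most 12, while PSMB10 was measured in every library. It was at 1.82, 1.59 and 2.19 CPM and 2.75, 3.60 and 3.92 CPM in shAMB, without overlap (log2 fold change 0.88, SE 0.22, adjusted p = 0.00273), and at 3.44, 4.90, 5.03 and 5.12 and 7.44, 5.44, 7.68 and 5.40 CPM in the tumors, also without overlap but not past the threshold (log2 fold change 0.49, SE 0.19, adjusted p = 0.062). In sh4 PSMB10 was at 3.44, 3.34 and 2.52 and 1.91, 2.24 and 2.65 CPM, which overlapped (log2 fold change -0.46, not past the threshold). In EV it did not pass either (0.17). The shAMB effect did not differ from the EV effect past the threshold (0.70), and the sh4 effect lay below the shAMB effect (-1.33).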

How the data were processed

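RNA of 26 libraries was sequenced. The labels give a stranded total RNA kit, but also polyA RNA. Per the deposited tables and processing notes, the authors aligned reads to hg38 with STAR and estimated expected counts per gene with RSEM (91.8% of culture and 91.0% of xenograft values were whole), and the authors also deposited TPM, a length-scaled transcript abundance that RSEM sets within each library. Tool versions, the annotation and the strand setting are not given in the sources used here. The 4 tables held 26485 genes and no per-sample column went unused.

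Expected counts were rounded and tested with edgeR 4.0.16 (R 4.3.3; filterByExpr, TMM factors, quasi-likelihood F test, Benjamini-Hochberg adjustment over all genes), with the 18 culture libraries in 1 fit and the 8 xenografts in another. Standard errors were derived from the F statistic. TMM factors were 0.974 to 1.07 and 0.936 to 1.09, and the median biological coefficient of variation was 0.115 and 0.186. No replicate pair differed by less than counting noise (chi-square per degree of freedom at least 1.81). Alternatives used DESeq2 1.42.0, RLE and upper quartile factors, no low count filter, limma 3.58.1 on log2(TPM + 1), GC content and length trends removed by splines with 5 degrees of freedom, a replicate block and leaving out each library. Scripts were tested on simulated data.

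The members, gene lists and tests were chosen with earlier results of these data known. Values in every library are given for the catalytic subunits, PSMD14, PSME1, PSME2 and, in the sh4, shAMB and xenograft comparisons, for the 3 called members of largest positive and the 3 of largest negative log2 fold change, 14 genes in all. PSMB10 was added after its values were seen. Exon overlaps, GC content and pseudogenes came from GENCODE release 44. Some genes of the pathway lists are counted but not reported here by name.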

Additional observations from a re-analysis of the deposited data

Results flagged for a closer look

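For all 14 members given by library except PSMB6 and PSMD14, the effect of doxycycline differed between lines in the edgeR test of the difference itself (adjusted p under 0.05). The 14 include members named for large fold changes in these libraries, so this count is a description, and 32.6%, 45.5% and 60.9% of all genes differed between sh4 and EV, shAMB and EV, and sh4 and shAMB. Values are differences of log2 fold changes. The sh4 effect lay below the EV effect for PSMA7 (-0.54), PSMB4 (-0.41), PSMB7 (-0.22), PSMC4 (-0.56), PSMD3 (-0.48), PSME1 (-0.31) and PSME2 (-0.32), and above it for PSMG4 (0.45). The shAMB effect lay below the EV effect for PSMA5 (-0.72), PSMB4 (-1.12), PSMB5 (-1.27), PSMB7 (-0.29), PSMG1 (-0.71) and PSMG4 (-0.66), and above it for PSME1 (0.89), PSME2 (0.24) and PSMG3 (0.74). These 2 sets of differences share the EV libraries. The sh4 effect lay above the shAMB effect for PSMA5 (0.63), PSMB4 (0.71), PSMB5 (1.03), PSMG1 (0.60) and PSMG4 (1.11), and below it for PSMA7 (-0.56), PSMC4 (-0.69), PSME1 (-1.20), PSME2 (-0.56) and PSMG3 (-0.50). The 28 tests for a single xenograft far from the other 3 of its group gave none.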

How the results depend on the processing

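Of 756 recomputed values for the 14 members given by library, 44 lost the call, 10 gained one and 2 called values turned sign: PSMB7 in sh4 with TPM and limma (0.0083) and PSMD14 in shAMB with GC content and length trends removed (0.052). The other 700 stayed on their side of the threshold, 676 of them with the same sign and 24 with the sign turned and neither value called. The trend removal gave 24 changed members in sh4 instead of 15, and 1 in sh4 DMSO against EV DMSO, as did DESeq2 (1). Over all genes, trend removal called 8195 in sh4 instead of 6091. In sh4 DMSO against EV DMSO, it called 765 of all genes and DESeq2 349, instead of 167. TPM with limma, which changes scale and test together, left 2 members in xenografts instead of 23. Of all genes, it left 1968 there instead of 6555. Requiring 1.5-fold as well left 0 in sh4, 12 in shAMB, 8 in xenografts, 0 in the sh4 and EV difference and 11 in each of the other differences between lines. Leaving out 1 library gave 12 to 19 members in sh4, 33 to 34 in shAMB, 18 to 29 in xenografts, 9 to 19 in the sh4 and EV difference, 29 to 31 in the shAMB and EV difference, 23 to 33 between sh4 and shAMB, and 0 to 0 in EV and both DMSO comparisons. Replicate numbers did not pair samples (correlations of deviations -0.603 to 0.374), and a replicate block left 5 members (1 higher, 4 lower) instead of 17 in the sh4 and EV difference, and 11 in sh4 and 18 in xenografts. Of all genes, the block left 2713 instead of 4856 in the sh4 and EV difference. It left 4366 instead of 6091 in sh4 and 4929 instead of 6555 in xenografts. With upper quartile factors the xenograft calls of PSMB6, PSMB7 and PSMD3 were lost (-0.27, -0.20 and -0.32), and with TPM and limma those of PSMA5, PSME1, PSMG1 and PSMG3 (-0.53, 0.78, -0.68 and 0.51). In sh4, PSME2 was lost with trend removal and with TPM and limma (-0.07 in both), and PSMG3 with the block (0.41). The causes were not tested.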

Other observations

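Of 31 tested genes of the ubiquitin and proteasome pathway outside the subunit rule, 0 rose and 11 fell in sh4, 5 rose and 16 fell in shAMB, and 3 rose and 13 fell in xenografts. These shares, 35.5%, 67.7% and 51.6%, stand beside 40.9%, 66.0% and 41.1% of all genes. Shuttle factors that carry ubiquitinated proteins to the proteasome were among those that fell. UBQLN1 fell in sh4, shAMB and xenografts (log2 fold changes -1.03, -1.19 and -0.63), and UBQLN4 fell in each as well (-0.24, -0.35 and -0.32). UBQLN2 fell in shAMB and xenografts (-0.56 and -0.64), while RAD23B changed in none of the 3. SHFM1, a small cap subunit with a name outside the rule, fell in shAMB and xenografts (-0.96 and -0.91), as did IPO9, an importin that carries proteasomes into the nucleus (-0.61 and -0.59). POMP, which helps to build the core, fell in shAMB (-0.45).

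NFE2L1, the transcription factor that raises proteasome genes when proteasome activity is low, rose in shAMB and xenografts (0.55 and 0.39), and DDI2, the protease that activates it, fell (-0.33 and -0.28). AKIRIN2, which works with IPO9 in that import, fell in sh4 (-0.42) and rose in shAMB and xenografts (0.30 and 0.70). Of the ubiquitin genes, RPS27A fell in sh4, shAMB and xenografts (-0.44, -0.68 and -0.62) and UBB fell in sh4 and xenografts (-0.41 and -0.40).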
